A study of Mus musculus with 6 samples.

Results

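To follow antisense transcription when Rbfox1 is switched on, the genes whose symbol ends in -AS and 1 digit were taken from the human gene models. Of 58870 genes in the files, 1249 carried such a name, and 205 of them had a summed expected count of at least 600 over the 6 samples. These 205 antisense genes, each set beside the gene named before the -AS, are described here. The minimum count was set on the sum over all samples and so did not use the comparison of the groups. Just below it lay LPP-AS2, LIPE-AS1 and BBOX1-AS1 with 586, 589 and 597 counts, and just inside it lay RUSC1-AS1, PCF11-AS1 and KCTD21-AS1 with 612, 617 and 618 counts. All 205 members passed the filter on low counts of the gene test.

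Antisense genes are transcribed from the strand opposite to a neighbouring gene, their sense partner, whose name they carry. Most make spliced, polyadenylated RNA with no long open reading frame, and many start near the promoter of the partner. Such RNAs can pair with the sense RNA, recruit or displace chromatin and transcription factors at the shared locus, or have roles elsewhere in the cell, and for most no role is known. Rbfox1 is an RNA-binding protein of neurons, heart and muscle that is best known for controlling alternative splicing through intronic binding sites.

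RNA sequencing was done on 77-5 cells, a single clone of T-REx-293 cells. T-REx-293 is a human HEK293 line that carries the tetracycline repressor. In this clone doxycycline induces Rbfox1, and all samples also carry a minigene built from a mouse BAC clone of the Ntrk2 (TrkB) locus. The untreated group (No Dox) and the group given doxycycline (Dox) at 0.5 mg/ml, as the labels state, for 48 h held 3 samples each. The organism field of the labels gives mouse, but all gene models in the files are human. The sources do not say whether replicates were separate cultures, so p-values measure the spread between these samples, which may be technical. No sample received doxycycline without Rbfox1, so effects of the drug and of Rbfox1 cannot be told apart. All results rest on 1 clone.

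The total expected count was 59822964 to 65774104 per sample. RBFOX1 itself was at 6.92, 8.42 and 7.26 TPM (a level scaled for transcript length and sequencing depth) in No Dox and at 190, 189 and 186 TPM in Dox (log2 fold change 4.55 ± 0.06, SE; adjusted p = 7.61e-18, edgeR). The epithelial and mesenchymal genes of HEK293 cells VIM, KRT8, KRT18 and CDH2 were expressed in all samples, as was NEFL, while PAX2 stood at only 2.03 to 2.77 TPM and NEFM at 0.45 to 1.21 TPM. Markers of blood, endothelium, liver, fibroblasts and heart muscle (PTPRC, CD3E, PECAM1, ALB, COL1A2, MYH7) did not exceed 0.5 TPM in any sample, and GFAP was at 0.29 to 0.63 TPM.

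Antisense genes moved in both directions after induction of Rbfox1. Of the 205, 70 rose and 44 fell, and 91 did not pass the threshold of an adjusted p of 0.05 (edgeR's quasi-likelihood test on expected counts summed per gene, adjusted over all 18264 genes tested). The members changed made up 55.6% of the list, with 34.1% higher and 21.5% lower. Among all genes tested, 51.4% changed, 24.9% upward and 26.5% downward. Among the 13796 tested genes with the same minimum count, 60.3% changed, 27% upward and 33.3% downward. The share of changed members was thus close to these backgrounds. The share of higher members was above that of lower members, while in both backgrounds lower calls were the more frequent. No test was made of this difference in split. The median log2 fold change was 0.05 over the members, 0.00 over all genes tested and -0.02 over the genes with the minimum count.

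**Figure D1:**
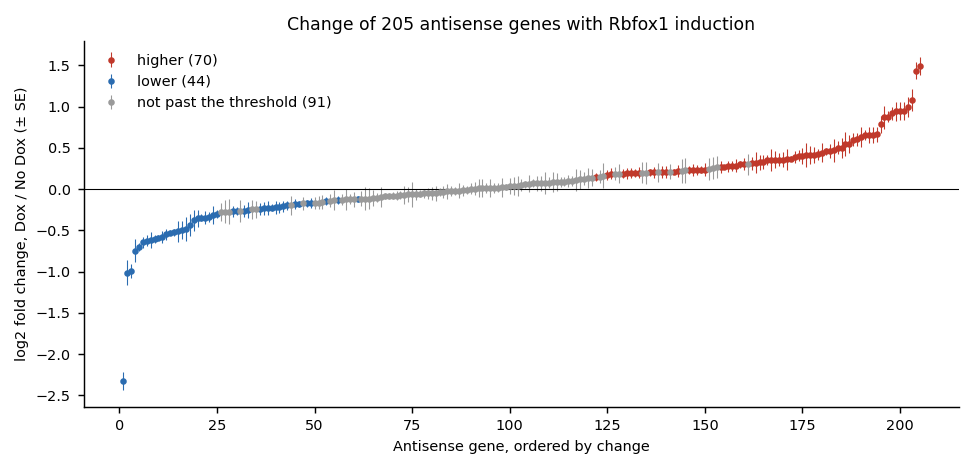
The log2 fold change (Dox over No Dox, y axis) of each of the 205 antisense genes, ordered from the largest fall to the largest rise along the x axis, with its standard error as a bar. Red points are the 70 genes past the threshold and higher in Dox, blue points the 44 that were lower and grey points the 91 not past it. A single gene, ZFHX2-AS1, lies far below the rest at -2.32.

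Most changes were small. Of the 114 changed genes, 34 had an absolute log2 fold change under 0.25, 43 lay between 0.25 and 0.5, 32 between 0.5 and 1, and 5 reached 1. The 5 genes were BCDIN3D-AS1, TOB1-AS1 and SLC44A3-AS1 among the rises and ZFHX2-AS1 and GNAS-AS1 among the falls, against a background of 3.07% of all genes tested that both passed the threshold and reached 1. The median absolute log2 fold change of the members was 0.22, against 0.18 over all genes tested and 0.15 over the genes with the minimum count. The members were also counted less deeply, with a median summed count of 2085 against 11781.5 for genes with the minimum count, and the part of this lower depth in the larger median was not tested. The median standard error of a member's log2 fold change was 0.08. Members not past the threshold had log2 fold changes from -0.28 to 0.30, so changes of that size could be missed for the lower counted members.

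The expression level of the members spanned from 0.5 to 100.4 TPM, with a median of 6.05 TPM. Genes that rose had a median level of 5.16 TPM and genes that fell one of 9.91 TPM. The members together took 0.211% ± 0.00063 of all expected counts in No Dox and 0.221% ± 0.0012 in Dox (SD, n = 3 each). FGD5-AS1 and OIP5-AS1, both higher in Dox, held 79500 and 47652 of these counts over the samples, and their part in the rise was not separated. For the members together the groups did not overlap, and the exact two-sided permutation p was 0.1, the smallest that 3 against 3 samples allow. Their summed level was 2316 ± 22.0 TPM in No Dox and 2330 ± 27.9 TPM in Dox (SD, n = 3 each; exact two-sided permutation p = 0.6), so on the scale corrected for length the groups overlapped.

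The largest rise was that of BCDIN3D-AS1 (ENSG00000258057.5), named after BCDIN3D, an RNA methyltransferase. It was at 1.28, 1.6 and 1 TPM in No Dox and at 2.9, 3.28 and 3.16 TPM in Dox, which is 2.81-fold higher (log2 fold change 1.49 ± 0.11, SE; adjusted p = 1.09e-08). Every Dox sample lay above every No Dox sample. Groups without overlap in normalised counts were a condition for naming the largest rises and falls given here. BCDIN3D itself was at 8.54 to 9.94 TPM over the 6 samples, with overlapping groups and a log2 fold change of -0.06 ± 0.05 (SE; adjusted p = 0.27).

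TOB1-AS1 (ENSG00000229980.4) carries the name of TOB1, an antiproliferative protein that brings the CCR4-NOT deadenylase to mRNAs. It was at 2.29, 2.1 and 2.77 TPM in No Dox and at 7.69, 6.67 and 6.77 TPM in Dox (log2 fold change 1.44 ± 0.11, SE; adjusted p = 1.47e-08). The groups were far apart, while TOB1 was at 18.8 to 20.8 TPM with overlapping groups (log2 fold change 0.00, adjusted p = 0.99). SLC44A3-AS1 (ENSG00000224081.9) was at 1.43, 1.24 and 1.85 TPM in No Dox and at 2.3, 2.63 and 2.34 TPM in Dox (log2 fold change 1.08 ± 0.13, SE; adjusted p = 5.18e-06). Here the partner rose too. SLC44A3, a choline transporter-like protein, was at 3.18, 2.49 and 2.21 TPM in No Dox and at 5.15, 4.33 and 4.74 TPM in Dox (log2 fold change 0.79 ± 0.08, SE; adjusted p = 7.4e-07).

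The other 9 of the 12 largest rises had log2 fold changes between 0.67 and 0.99. ZNF561-AS1, RAP2C-AS1, MSC-AS1 and PROX1-AS1 stood at 0.99, 0.95, 0.95 and 0.94, and their partners are a zinc finger protein, a Ras-like GTPase and the transcription factors musculin and PROX1. ZSWIM8-AS1 rose by 0.92 on the log2 scale, from 4.55, 4.36 and 4.13 TPM to 8.95, 8.57 and 7.84 TPM. Its partner ZSWIM8, the receptor of a ubiquitin ligase that acts in target-directed microRNA decay, was at 41.1 to 50.4 TPM with a log2 fold change of 0.02 (adjusted p = 0.66). PSMG3-AS1, SATB1-AS1 and HMGN3-AS1 rose by 0.88, 0.87 and 0.67. Their partners are a proteasome assembly chaperone, a chromatin organiser and a nucleosome-binding protein.

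EXOSC10-AS1 bears the name of EXOSC10, a catalytic subunit of the nuclear RNA exosome. It was at 9.08, 10.2 and 9.43 TPM in No Dox and at 16.9, 17.9 and 18.3 TPM in Dox (log2 fold change 0.78 ± 0.11, SE; adjusted p = 1.48e-05). The groups were well separated. EXOSC10 was at 109 to 120 TPM with overlapping groups, and its log2 fold change of -0.07 ± 0.03 (SE; adjusted p = 0.041) turned to 0.04 when summed TPM were tested with limma in place of counts (adjusted p = 0.31).

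**Figure D2:**
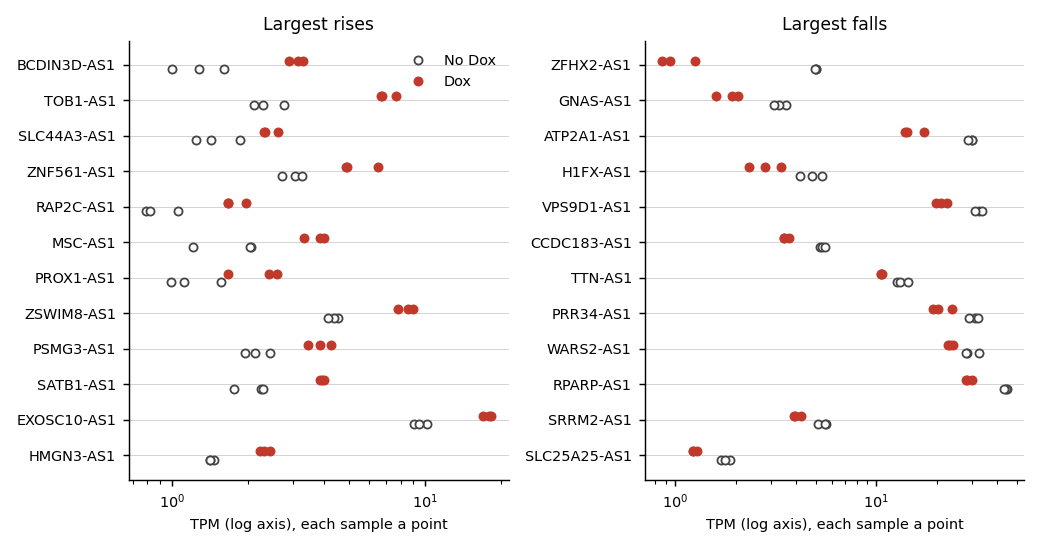
TPM (x axis, log scale) of the 12 antisense genes with the largest rises (left) and the 12 with the largest falls (right), each sample a point, open for No Dox and red for Dox (3 samples each). The 24 genes were chosen with normalised counts that did not overlap between groups, and their TPM do not overlap either. ZFHX2-AS1 shows the widest gap, with No Dox at 4.94 to 5.04 TPM and Dox at 0.86 to 1.26 TPM.

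The largest change of any member was the fall of ZFHX2-AS1 (ENSG00000157306.14), whose partner ZFHX2 encodes a zinc finger homeobox protein. It was at 5.04, 5.03 and 4.94 TPM in No Dox and at 1.26, 0.86 and 0.94 TPM in Dox, which is 5.0-fold lower (log2 fold change -2.32 ± 0.11, SE; adjusted p = 8.65e-11). The No Dox samples were nearly equal and all Dox samples lay at about the same low level. It had a single tested isoform, ZFHX2-AS1-201, which took at least 98.8% of the gene in every sample. ZFHX2 itself was at 2.47 to 2.72 TPM in No Dox and at 2.42 to 2.91 TPM in Dox. Its log2 fold change of 0.19 ± 0.07 (SE; adjusted p = 0.03) did not pass with DESeq2 (adjusted p = 0.052).

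GNAS-AS1 (ENSG00000235590.7) is an imprinted antisense RNA of the locus of GNAS, the stimulatory G protein alpha subunit. It was at 3.58, 3.3 and 3.09 TPM in No Dox and at 1.59, 2.06 and 1.92 TPM in Dox (log2 fold change -1.01 ± 0.15, SE; adjusted p = 4.57e-05). The groups were apart. GNAS fell from 702 to 726 TPM to 634 to 674 TPM, a log2 fold change of -0.12 ± 0.02 (SE; adjusted p = 0.000207).

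ATP2A1-AS1 (ENSG00000260442.5) was at 29.8, 29.8 and 28.4 TPM in No Dox and at 17.2, 14.2 and 13.8 TPM in Dox (log2 fold change -0.996 ± 0.09, SE; adjusted p = 8.13e-08). Its partner ATP2A1, the SERCA1 calcium pump of fast muscle, is described with the pairs that moved apart. The other 9 of the 12 largest falls had log2 fold changes between -0.75 and -0.55. H1FX-AS1, named after a linker histone, had the lowest of these values and VPS9D1-AS1 the next, -0.70. The remaining 7 were CCDC183-AS1, TTN-AS1, PRR34-AS1, WARS2-AS1, RPARP-AS1, SRRM2-AS1 and SLC25A25-AS1. RPARP-AS1 was one of the more abundant members, at 44.7, 44.2 and 43.3 TPM in No Dox and at 28.1, 29.9 and 27.9 TPM in Dox (log2 fold change -0.59 ± 0.04, SE; adjusted p = 1.29e-09), and the files hold no gene named RPARP. SRRM2, a large scaffold protein of splicing and the partner of SRRM2-AS1, fell as well, by 0.18 on the log2 scale (adjusted p = 2.59e-05).

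Of the 10 most abundant members, 2 rose, 5 fell and 3 did not pass the threshold, where 24.9% of all genes tested rose and 26.5% fell. HOXB-AS3 (ENSG00000233101.10) had the highest mean level, at 89.8, 90.7 and 87.6 TPM in No Dox and at 118, 107 and 108 TPM in Dox (log2 fold change 0.24 ± 0.04, SE; adjusted p = 0.000249). FGD5-AS1 had the most counts, 79500 over the samples. It was at 81.5 to 83.9 TPM in No Dox and at 101 to 103 TPM in Dox (log2 fold change 0.27 ± 0.02, SE; adjusted p = 1.09e-07). The groups of both genes were apart, although the rises were only 1.18-fold and 1.21-fold. FGD5, a guanine nucleotide exchange factor of endothelium, was at 0.1 to 0.32 TPM.

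Among the other 8 of the 10 most abundant members, the log2 fold changes of TMEM147-AS1 and SLC9A3-AS1 were -0.53 and -0.52. CIRBP-AS1, MRPL20-AS1 and PITPNA-AS1 fell by 0.27, 0.18 and 0.17. The last of these lost its call with DESeq2 (adjusted p = 0.09). THUMPD3-AS1, EPB41L4A-AS1 and SVIL-AS1 did not pass the threshold, with log2 fold changes of -0.08, 0.07 and 0.09. SVIL-AS1 was at 26.6, 38.3 and 30.2 TPM in No Dox and at 30.1, 26.7 and 82.5 TPM in Dox. The high value came from Dox replicate 3, where 9.81 expected counts on SVIL-AS1-213, an isoform of 122 bases, gave 58.2 TPM. The same isoform gave 11.7 and 8.29 TPM in No Dox replicates 2 and 3 and 5.98 TPM in Dox replicate 1, from at most 1.93 counts. The place of SVIL-AS1 among the 10 rests on this isoform. The normalised counts of SVIL-AS1 overlapped between the groups.

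The HOX clusters, whose homeobox transcription factors set position along the body axis, held 4 members without a single partner gene. HOXA-AS3 rose from 14.5 to 16.2 TPM to 17.8 to 19.2 TPM (log2 fold change 0.30, adjusted p = 3.4e-05), and HOXA-AS2 from 6.92 to 8.41 TPM to 8.82 to 9.71 TPM (0.24, adjusted p = 0.015). With HOXB-AS3, 3 of the 4 thus rose. HOXC-AS2 was at 2.75 to 3.49 TPM with overlapping groups (-0.12, adjusted p = 0.28). These clusters were looked at after their values were seen. Of the HOX protein genes, 8 of 11 tested rose in HOXA, 8 of 9 in HOXB, 4 of 8 in HOXC and 5 of 9 in HOXD, against 24.9% of all genes tested that rose. HOXA13, HOXC11 and HOXD13 fell.

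A pair of members among the better studied antisense RNAs were also picked after their values were seen. OIP5-AS1, known for its pairing with the microRNA miR-7, was at 35.1, 35.9 and 29.1 TPM in No Dox and at 37.3, 36.3 and 38.1 TPM in Dox (log2 fold change 0.37 ± 0.03, SE; adjusted p = 1.82e-08). Its groups did not overlap, although the gap in TPM was narrow. CDKN2B-AS1, also called ANRIL, lies at a locus of cell cycle inhibitors and rose by 0.17 (adjusted p = 0.026).

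Other name families, also chosen after their values were seen, were split. Of 13 members named after a ZNF zinc finger gene, 7 rose, 2 fell and 4 did not pass, with the rises running from 0.19 for ZNF667-AS1 to 0.99 for ZNF561-AS1. The shares over all genes tested were 24.9% higher and 26.5% lower. Of 8 members named after an SLC transporter gene, 4 rose, 3 fell and 1 did not pass, beside the same shares over all genes. PAXIP1, an adaptor of DNA repair and histone methylation, was the only partner with more than 1 member. PAXIP1-AS2 rose from 2.9 to 3.26 TPM to 3.92 to 5.07 TPM (log2 fold change 0.65, adjusted p = 3.35e-07). PAXIP1-AS1 had a log2 fold change of -0.13 (adjusted p = 0.041), with 10.1 to 10.7 TPM in No Dox against 9.27 to 10.3 TPM in Dox, which overlapped. PAXIP1 fell by 0.23 (adjusted p = 7.11e-06).

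Next, each antisense gene was set beside its partner. A gene of the partner's name was in the files for 200 members, which gave 200 pairs with 199 different partners, and 5 members had none (HOXA-AS2, HOXA-AS3, HOXB-AS3, HOXC-AS2 and RPARP-AS1). The partners were the more abundant side in 135 pairs and the antisense gene in 65, and the median ratio of the partner's TPM to that of the antisense gene was 2.59. Of 187 partners that passed the filter on low counts, 61 rose, 52 fell and 74 did not pass the threshold. Thus 60.4% changed, 32.6% upward and 27.8% downward. Among all genes tested 51.4% changed, 24.9% upward and 26.5% downward. Among genes with the minimum count, which was not asked of the partners, 60.3% changed, 27% upward and 33.3% downward. No partner reached an absolute log2 fold change of 1. The largest was 0.98 for ENTPD1, the ectonucleotidase CD39, which was at 0.42 to 0.53 TPM in No Dox and at 0.91 to 1.25 TPM in Dox. Its antisense gene ENTPD1-AS1 was at 27.1 to 29.9 TPM with overlapping groups (log2 fold change -0.08, adjusted p = 0.23). ENTPD1 was singled out after its value was seen.

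The change of the antisense gene did not go with that of its partner. Over the 188 pairs with a tested partner the Pearson correlation of the log2 fold changes was -0.03 and the Spearman correlation -0.02. This is a description over pairs that share the same 6 libraries. In 63 pairs both genes passed the threshold. Of these, 20 rose together and 15 fell together, while 16 had a higher antisense gene with a lower partner and 12 a lower antisense gene with a higher partner. In 39 pairs the antisense gene alone passed, in 51 the partner alone, and in 35 neither. Of all members 55.6% changed, as did 60.4% of the tested partners, 51.4% of all genes tested and 60.3% of those with the minimum count. Pairs with both genes called would be frequent even with no link within a pair, and whether 63 exceeds that was not tested.

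**Figure D3:**
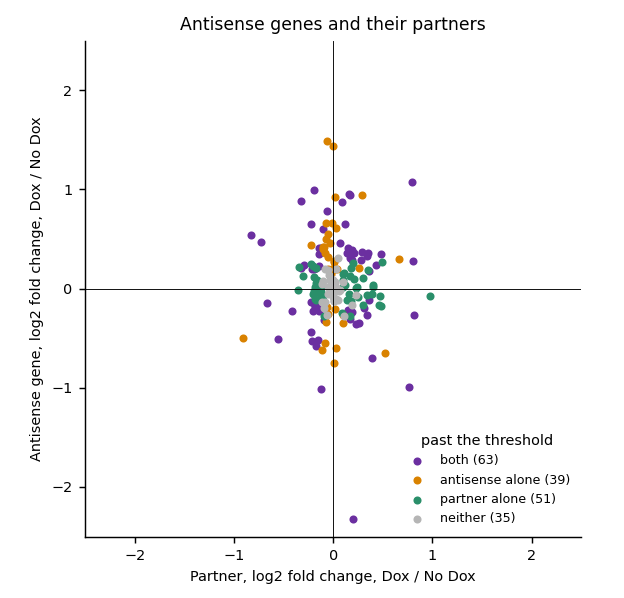
The log2 fold change (Dox over No Dox) of each antisense gene (y axis) against that of its partner (x axis) for the 188 pairs with a tested partner, coloured by which gene of the pair passed the threshold. The cloud has no slope (Pearson -0.03), and the antisense genes spread more widely than the partners, none of which passes 1 on its axis.

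The libraries were made with a stranded kit, but no source used here gives the strand setting of the quantification. Where the genes of a pair overlap, reads of one may have been given to the other, and this was not tested. In 12 pairs the partner had at most 57 counts over the 6 samples and was not tested. With the strand setting unknown, such a low count cannot tell whether reads of the partner were given to the antisense gene. Of the antisense genes in these pairs, 4 rose (A2M-AS1, FLG-AS1, SLC5A4-AS1 and WEE2-AS1), 4 fell (ALOX12-AS1, CD27-AS1, SLFNL1-AS1 and TTN-AS1) and 4 did not pass. Among all genes tested 24.9% rose and 26.5% fell, and among those with the minimum count 27% rose and 33.3% fell. With 12 pairs, no difference from these shares was tested. The fall of ALOX12-AS1 was on the count scale alone, since its level of 3.14 to 4.64 TPM in Dox overlapped the 3.21 to 4.41 TPM of No Dox. TTN-AS1, named after the giant muscle protein titin, was at 12.7, 13.2 and 14.3 TPM in No Dox and at 10.6, 10.5 and 10.6 TPM in Dox (log2 fold change -0.62 ± 0.06, SE; adjusted p = 5.8e-07). TTN itself was listed at 0 TPM in 5 of the 6 samples and at 0.02 TPM in the other, with 43 counts in all.

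Among pairs in which both genes passed, the 8 with the widest gap all moved in opposite directions. A choice by the gap favours such pairs. Of all 63 pairs with both genes past the threshold, 35 moved in the same direction and 28 in opposite ones. For ATP2A1-AS1, which fell as given above, the partner ATP2A1 rose by 0.77 on the log2 scale (SE 0.09, adjusted p = 1.66e-06). ATP2A1 was at 3.4, 2.08 and 1.79 TPM in No Dox and at 4.61, 3.15 and 5.29 TPM in Dox, so that on the TPM scale the groups overlapped, while its normalised counts did not. The log2 ratio of antisense to partner counts went from 1.16 ± 0.13 in No Dox to -0.61 ± 0.16 in Dox (SD, n = 3 each). The antisense gene thus had the higher count of the pair in No Dox and the lower one in Dox. Counts are not corrected for length, and in mean TPM the antisense gene stayed the higher of the pair. It was at 29.4 against 2.42 TPM in No Dox and at 15.1 against 4.35 TPM in Dox.

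VPS9D1-AS1 and FEZF1-AS1 fell while their partners rose. VPS9D1-AS1 was at 32.6, 33.6 and 31 TPM in No Dox and at 22.5, 21 and 19.7 TPM in Dox, and VPS9D1 was at 3.35, 3.09 and 3.12 TPM and at 4.78, 3.83 and 4.21 TPM (log2 fold change 0.39, adjusted p = 0.000848). Neither gene's groups overlapped, and the log2 count ratio went from 2.75 ± 0.04 to 1.67 ± 0.08 (SD, n = 3 each). FEZF1-AS1 was at 8.43, 8.37 and 8.5 TPM in No Dox and at 6.86, 7.52 and 6.98 TPM in Dox (log2 fold change -0.26 ± 0.07, SE; adjusted p = 0.005). FEZF1, a zinc finger repressor of forebrain development, rose from 1.61, 1.41 and 1.28 TPM to 2.73, 2.75 and 2.18 TPM (log2 fold change 0.81 ± 0.12, SE; adjusted p = 4e-05).

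In 4 of the 8 pairs the antisense gene rose and the partner fell. PSMG3-AS1 was at 2.43, 2.13 and 1.95 TPM in No Dox and at 3.44, 4.25 and 3.86 TPM in Dox. PSMG3 fell from 113, 112 and 109 TPM to 92.7, 93.6 and 90.8 TPM (log2 fold change -0.32 ± 0.03, SE; adjusted p = 6.76e-07). The partner stood far above its antisense gene in both groups. ZNF561-AS1 was at 2.72, 3.05 and 3.26 TPM in No Dox and at 4.85, 6.53 and 4.9 TPM in Dox. ZNF561, at 11.8 to 12.7 TPM in No Dox and at 9.37 to 11.3 TPM in Dox, fell by 0.20 (adjusted p = 0.0062) and remained the more abundant of the pair.

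RAMP2-AS1 was at 0.92, 1.05 and 1.26 TPM in No Dox and at 1.57, 1.41 and 1.74 TPM in Dox (log2 fold change 0.47 ± 0.14, SE; adjusted p = 0.01), and its call was lost without No Dox replicate 1 (adjusted p = 0.062). RAMP2, a receptor activity-modifying protein, was at 2.15, 2.17 and 2.1 TPM in No Dox and at 1.18, 1.77 and 1.1 TPM in Dox (log2 fold change -0.73 ± 0.23, SE; adjusted p = 0.016). Both genes had few counts, and the groups of each stood apart. For SLC26A4-AS1 and SLC26A4, the anion exchanger pendrin, the log2 fold changes of the counts were 0.54 and -0.83, but both genes overlapped between groups in TPM. SLC26A4-AS1 did not pass when TPM were tested (adjusted p = 0.28).

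**Figure D4:**
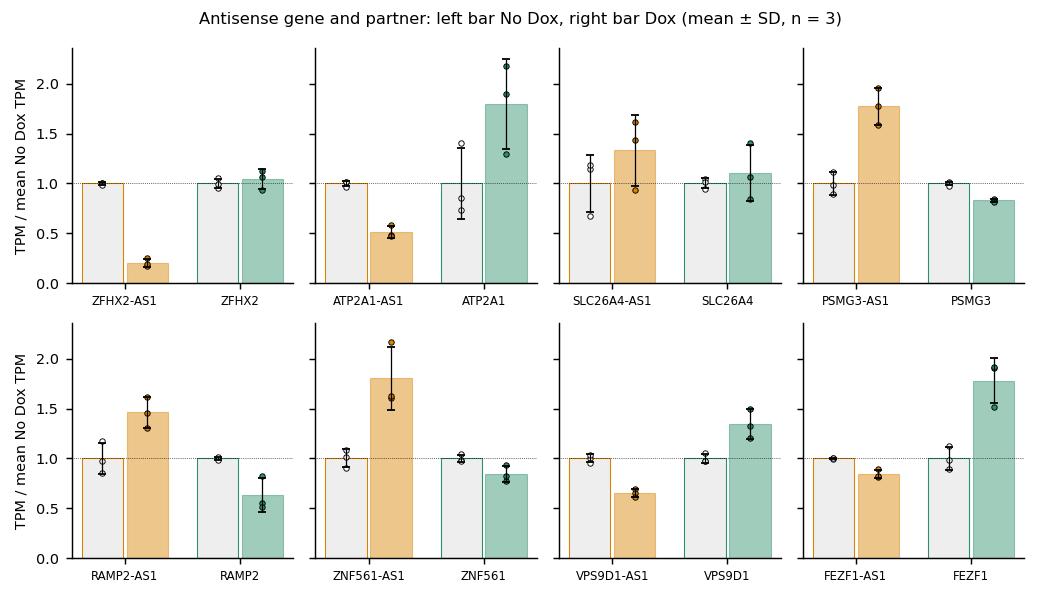
TPM divided by the gene's mean TPM in No Dox (y axis) for the 8 pairs with the widest gap, the antisense gene in orange at the left of each panel and the partner in green at the right, with a grey No Dox bar beside the coloured Dox bar (mean ± SD, n = 3, samples as points). ZFHX2-AS1 falls by far the most, and its partner ZFHX2 stays near 1, and SLC26A4 shows no fall on this scale.

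SLC44A3-AS1 and SLC44A3, given above, moved the same way, as did FGD5-AS1 and FGD5, where the partner had few counts (252 over the samples; log2 fold change 0.81 ± 0.24, SE; adjusted p = 0.01) and did not pass when TPM were tested (adjusted p = 0.34). ZNF503-AS2 was at 14, 14.4 and 14.2 TPM in No Dox and at 20.6, 19.1 and 19 TPM in Dox (log2 fold change 0.35, adjusted p = 0.00011), and ZNF503, a zinc finger repressor of transcription, rose by 0.48 (adjusted p = 1.24e-08). MELTF-AS1 and MELTF, the iron-binding protein melanotransferrin, fell by 0.51 and 0.56 (adjusted p = 0.0036 and 1.77e-06). The ZNF503 and MELTF pairs were chosen after their values were seen.

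Because Rbfox1 is a splicing regulator, the isoforms of the antisense genes were compared as well. Of 1622 annotated isoforms of the members, 687 passed the filter, and 71 changed (10.3%), 40 upward and 31 downward, in 58 genes (limma-voom over 72278 isoforms). Among all isoforms tested 12.7% changed. On simulated data the isoform test called 22.4% of the 1.5-fold and 29.9% of the 2-fold changes put in. The gene test called 97% and 100% of changes of these sizes. Changes were put only into features with at least 600 summed counts, and 67824 of 68023 simulated isoforms were left unchanged. In the real data a far larger share of isoforms was called, and tested member isoforms had a median summed count of 393. The rates thus cannot be carried over to the members, and changes of these sizes may be missed. Of the 205 members, 47 had 1 tested isoform and 158 had 2 or more. In 54 genes with a changed isoform the gene sum passed too, and in 4 it did not: ATP6V0E2-AS1, MAGI2-AS3, THUMPD3-AS1 and ZNF529-AS1. Leaving out 1 sample lowered the count of changed isoforms to between 37 and 45, so the calls made here depend on the number of samples.

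In 4 genes, isoforms passed in both directions, and the widest exchange was in ATP6V0E2-AS1, named after a subunit of the vacuolar proton pump. ATP6V0E2-AS1-201 (2973 bases) made up 74.0%, 78.3% and 79.2% of the gene in No Dox and 40.9%, 28.6% and 27.5% in Dox (log2 fold change -1.22 ± 0.15, SE; adjusted p = 0.0036, limma). The rest was ATP6V0E2-AS1-203 (2936 bases), which went from 22.8% ± 2.78 to 67.7% ± 7.47 (SD, n = 3 each; log2 fold change 1.61, adjusted p = 0.0014). The leading isoform was thus a different one in each group, while the gene sum had a log2 fold change of 0.02 (edgeR, adjusted p = 0.80).

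In NUTM2B-AS1, isoform 211 went from 28.2% ± 0.715 to 46.5% ± 2.27 of the gene, and isoform 204 from 14.8% ± 2.45 to 6.29% ± 0.445 (SD, n = 3 each). Both changes passed (adjusted p = 0.015 and 0.0078), and the gene sum fell by 0.19 on the log2 scale. In MAGI2-AS3, named after a membrane scaffold protein, isoform 201 rose from 22.9% ± 1.22 to 35.6% ± 2.82 and isoform 212 fell from 14.9% ± 1.74 to 11.7% ± 0.963 (SD, n = 3 each). The groups of neither isoform overlapped. In GATA2-AS1, isoform 201 went from 78.2% ± 0.195 to 85.1% ± 0.671 and isoform 202 from 18.2% ± 1.35 to 10.3% ± 0.291 (SD, n = 3 each).

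**Figure D5:**
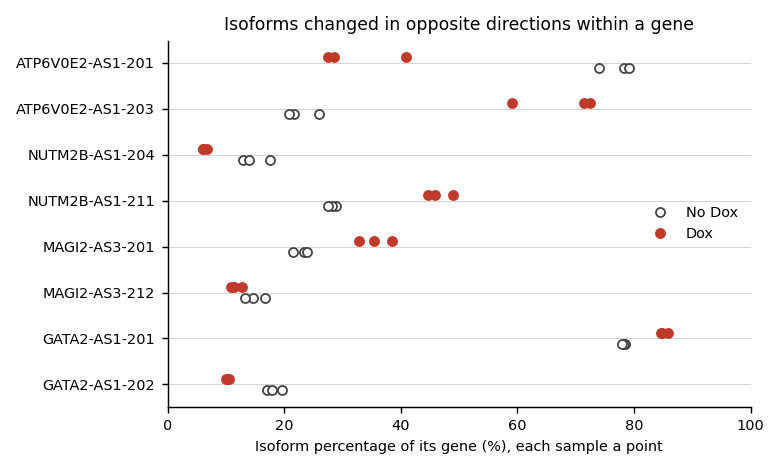
Percentage of its gene's transcripts (x axis) taken by each isoform that changed in the 4 antisense genes with isoforms moving in both directions, each sample a point, open for No Dox and red for Dox (3 samples each). The isoforms of ATP6V0E2-AS1 exchange places, from 74.0% to 79.2% down to 27.5% to 40.9% for isoform 201.

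Other transcripts named after a neighbouring gene were compared for context. There were 35 such genes with the minimum count (-AS with no digit, -DT for divergent, -IT for intronic and -OT for overlapping transcripts). Of these, 15 rose (42.9%), 1 fell and 19 did not pass the threshold, with a median log2 fold change of 0.14. Among all genes tested 24.9% rose and 26.5% fell, and among those with the minimum count 27% rose and 33.3% fell. NPTN-IT1, HOXA10-AS, SOD2-OT1 and NIPBL-DT had the largest changes, 0.67, 0.66, 0.53 and 0.46 on the log2 scale. HOXA10-AS was at 6.93, 7.5 and 5.63 TPM in No Dox and at 12, 10.1 and 10.3 TPM in Dox (adjusted p = 2.22e-05), and MAFG-DT was the gene that fell (-0.36, adjusted p = 0.0054). BDNF-AS, antisense to the gene of the neurotrophin that binds TrkB, rose by 0.43 (adjusted p = 0.006). It was named after its value was seen.

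Genes whose proteins bind, edit, cut or sense double-stranded RNA, such as sense and antisense RNA can form, were split. Of 17, 3 rose, 7 fell and 7 did not pass, with a median log2 fold change of -0.05, where 51.4% of all genes tested changed, 24.9% upward and 26.5% downward. IFIH1, the sensor MDA5, had the largest change past the threshold, -0.38 (adjusted p = 0.005). Its TPM overlapped between groups, and it did not pass when TPM were tested with limma (adjusted p = 0.37). STAU2, a double-stranded RNA-binding transport protein, rose by 0.37, and TARBP2 and PRKRA, both partners of Dicer, fell by 0.26 and rose by 0.21. ADAR, the main RNA-editing enzyme, fell by 0.13 (adjusted p = 0.000105), and DICER1 was at -0.05 (adjusted p = 0.15). DICER1 and PRKRA are also partners of members, and DICER1-AS1 and PRKRA-AS1 had log2 fold changes of 0.19 and 0.10 and did not pass (adjusted p = 0.056 and 0.24).

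Of 25 genes listed for nuclear RNA decay, 13 fell, 4 rose and 8 did not pass, with a median log2 fold change of -0.07. The list includes XRN1 and DIS3L, whose proteins act mainly in the cytoplasm, and these were among the 4 that rose. Of all genes tested, 26.5% fell and 24.9% rose, and the median was 0.00. Among genes with the minimum count, which all 25 exceeded, 33.3% fell and 27% rose, and the median was -0.02. All changes were small. EXOSC4, a core subunit of the exosome, went from 65.6, 67.7 and 65 TPM to 51.7, 51.1 and 48.1 TPM (log2 fold change -0.44 ± 0.04, SE; adjusted p = 1.13e-07). INTS11, the catalytic subunit of Integrator, and TENT4A, a poly(A) polymerase, fell by 0.42 and 0.31, and the 5′ to 3′ exonuclease XRN1 rose by 0.33. EXOSC1, EXOSC3, EXOSC5, EXOSC8 and EXOSC9 fell by 0.16 to 0.27, while EXOSC6 rose by 0.15. MTREX, ZCCHC8 and RBM7, the subunits of the NEXT complex that hands promoter upstream and antisense RNA to the exosome, had log2 fold changes of -0.06, -0.04 and 0.06 and did not pass.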

How the data were processed

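RNA of 77-5 cells was sequenced by the authors as paired-end stranded mRNA libraries, trimmed with cutadapt, mapped to GRCh38 with STAR and quantified per isoform with RSEM (no source used here gives versions or the strand setting). The deposited files hold RSEM expected counts, TPM and isoform percent, the share of a gene's transcripts taken by an isoform. Expected counts and TPM were summed per gene. Rounded gene sums were tested with edgeR 4.0.16 (TMM, filterByExpr, quasi-likelihood test) and rounded isoform counts with limma 3.58.1 (voom) in R 4.3.3, two-sided, on all features of the 3 No Dox and 3 Dox samples, with Benjamini-Hochberg adjustment and a threshold of 0.05. DESeq2 1.42.0 was an alternative. The study's own gene test was DESeq2. TPM were tested with limma on log2(TPM + 0.1). The common biological coefficient of variation was 2.87%. The tests were also run on simulated data.

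The members and lists were chosen with earlier results of these data known. Named genes were the 12 largest rises and 12 largest falls past the threshold with CPM that did not overlap between groups. The 10 most abundant members and the partners of all these were named too. So were the 8 pairs with both genes past the threshold and the widest gap, and the genes with isoforms changed in both directions. Of each list, the 4 largest changes past the threshold were named. Others are named as chosen after their values were seen. The lists were double-stranded RNA genes and nuclear decay genes, the latter including XRN1 and DIS3L, which act mainly in the cytoplasm. The decay list held 29 names, of which 25 were in the files, since 4 are older symbols of genes already listed. Same-numbered samples correlated at 0.028 to 0.057 in their deviations from the group means, under the 0.1 asked for, so the numbers were not taken as pairs. No genome or sequence of the human build was used here, so positions, orientation and sequences of the pairs are not given.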

Additional observations from a re-analysis of the deposited data

How the results depend on the processing

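The count of 114 changed antisense genes lay between 84 (TPM with limma) and 120 over the other tests, scalings and filters, and between 99 and 107 when 1 sample was left out. No gene called in both the reported test and any of these fits changed direction. With a minimum count of 300 in place of 600, 135 of 275 changed, and with 1200, 88 of 144. With library size alone as the scaling, 76 members were higher and 33 lower. Changed partners numbered 77 (TPM with limma) to 117, and 98 to 113 with 1 sample left out.

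Requiring an absolute log2 fold change of 1 left 5 antisense genes, 0 partners, 0 of the other named transcripts, 0 double-stranded RNA and nuclear decay genes and 13 isoforms. With TPM and limma, 10 of the other named transcripts changed in place of 16. DESeq2 called 123 antisense isoforms in place of 71, and 37 to 45 were called with 1 sample left out, where fewer samples enter the fit. The cause of the first difference was not tested. Over 84 single genes and 12 alternatives each, 55 calls were lost, 13 were gained and 1 turned, EXOSC10 at 0.044 with TPM and limma.

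The replicate numbers of the labels were not taken as pairs. With the replicate number as a block, 120 antisense genes changed (114 of them shared with the fit without it), 117 partners, 17 of the other named transcripts, 28 double-stranded RNA and decay genes and 48 isoforms, and RBFOX1 stayed at 4.55. Each sample correlated best with its own number.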
